A study of Mus musculus with 18 samples.

Results

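Small nucleolar RNA host transcripts are long noncoding RNAs whose introns carry small nucleolar RNAs. The members described here are all rows of the noncoding RNA table whose symbol is Gas5 or Snhg followed by a number. That rule gave 100 transcripts of 17 symbols among 33433 noncoding transcripts, and every symbol is also described by the sum of its transcripts. The measurements are RNA sequencing of whole testis from adult C57BL/6 mice, with 3 libraries of the Taf7l knock-in genotype and 3 libraries of the wild type. Taf7l, on the X chromosome, encodes a paralog of Taf7 that is used by TFIID, the complex that starts transcription, in germ cells. The change carried by the knock-in allele is not named in the sample labels, and both genotypes share the strain and the tissue. Per the labels, testes were frozen, RNA was taken with Trizol and libraries were made from total RNA with a stranded kit. No label says whether libraries came from separate animals, so each p-value rests on library-to-library spread that may be technical in part. The other 12 samples, which are isolated germ cells, were not analysed here.

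Small nucleolar RNAs guide chemical modification and processing of ribosomal RNA. Box C/D members guide methylation of the ribose and box H/ACA members guide conversion of uridine to pseudouridine. In mammals most of them are cut from introns after splicing, so a host gene gives 2 products, a small RNA from an intron and a spliced host transcript from its exons. Many spliced hosts are targets of nonsense-mediated decay, and several begin with a terminal oligopyrimidine tract, the run of C and T at the start that they share with the genes for ribosomal proteins. The spliced host RNA was counted here, not the small RNA.

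RefSeq positions on GRCm38.p6, the assembly also called mm10, place the 17 hosts on loci of 435 to 1177441 bp. RefSeq annotates 243 small nucleolar RNA genes inside 15 of these loci, and the Cajal body guide RNA Scarna13 inside Snhg10. Snhg14, the imprinted host of the Snord115 and Snord116 clusters, holds 206 of the 243. Gas5 holds 8, Snhg1 holds 8 and Snhg12 holds 4, among them Snora16a, Snora44, Snora61 and Snord99. Snhg16 carries Snord1a, Snord1b and Snord1c, and Snhg3 carries Snora73a and Snora73b, the U17 RNAs that act in cleavage of the ribosomal RNA precursor. Snhg8 carries Snora24, Snhg6 carries Snord87 and Snhg18 carries Snord123. No small guide RNA is annotated inside the RefSeq locus of Snhg20.

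Starts of some hosts are shown because a terminal oligopyrimidine tract and a TATA box are the start features for which such genes, and the TFIID complex, are known. RefSeq promoters were found for 15 of the 17 symbols, with 17 starts in all. The starts printed are a selection that favours those with a run of C and T. No such run opens the other start of Gas5 or the starts of Snhg9, Snhg10, Snhg11, Snhg14, Snhg15, Snhg16 and Snhg20. Snhg17, also not printed, has a start with a run of 6 bases and another with none. Each line gives 45 bases before the annotated start and 20 bases from it on, 5′ to 3′ on the strand of the gene. Capitals mark the unbroken run of C and T at the start and any TATAAA.
Gas5, chr1:161035121-161035185, plus strand: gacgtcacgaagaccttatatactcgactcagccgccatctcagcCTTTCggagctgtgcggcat
Snhg8, chr3:123508317-123508381, minus strand: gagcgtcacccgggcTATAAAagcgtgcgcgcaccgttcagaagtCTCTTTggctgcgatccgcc
Snhg12, chr4:132308633-132308697, plus strand: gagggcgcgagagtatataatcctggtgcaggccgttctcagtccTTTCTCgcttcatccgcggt
Snhg18, chr15:32244643-32244707, minus strand: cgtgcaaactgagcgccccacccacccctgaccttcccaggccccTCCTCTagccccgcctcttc
Snhg1, chr19:8723442-8723506, plus strand: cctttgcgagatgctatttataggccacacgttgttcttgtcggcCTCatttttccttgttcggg
Snhg5, chr9:88522878-88522942, minus strand: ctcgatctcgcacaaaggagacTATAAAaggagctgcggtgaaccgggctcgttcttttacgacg
Snhg3, chr4:132353667-132353731, minus strand: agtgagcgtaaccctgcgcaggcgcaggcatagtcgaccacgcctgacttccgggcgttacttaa

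A start at a C followed by at least 4 further pyrimidines was present at 2 of the 17 host starts, Gas5 and Snhg8, and at 2.51% of all 32851 promoters in the table. When the C was allowed within 5 bases of the annotated start, a setting added after the files were seen, 7 of the 17 host starts matched and 18.3% of all promoters. TATAAA on the sense strand from 35 to 20 bases before the start, likewise added later, was present in Snhg5 and Snhg8, where it begins at -23 and -30, and in 1.84% of all promoters. Only the exact TATAAA was searched, so other forms of a TATA box were not counted. These are descriptions of letters near annotated starts.

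Over the whole promoter window of 250 bases before to 50 bases after the start, read on both strands, the commonest of the motifs searched among the hosts was GGGCGG. It was present in 11 of 17 host promoters and in 35.7% of all promoters. TATAAA was in 5 of 17 against 13.6%, CCAAT in 5 of 17 against 37.4%, CACGTG in 2 of 17 against 7.15%, and TGACGTCA in 2 of 17 against 1.79%. The full windows of Snhg3 and Snhg8, the hosts with the highest level, and of Snhg18, the host with the largest fold change, show how different these promoters are. Capitals here mark the CCAAT and TATAAA motifs and GGGCGG on either strand.
Snhg3, chr4:132353637-132353936, minus strand: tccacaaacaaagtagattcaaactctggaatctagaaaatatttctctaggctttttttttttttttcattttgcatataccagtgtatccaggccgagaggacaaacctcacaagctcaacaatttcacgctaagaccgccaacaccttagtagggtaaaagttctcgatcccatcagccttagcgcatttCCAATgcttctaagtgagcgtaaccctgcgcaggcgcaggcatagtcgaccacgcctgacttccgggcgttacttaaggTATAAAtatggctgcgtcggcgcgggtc
Snhg8, chr3:123508287-123508586, minus strand: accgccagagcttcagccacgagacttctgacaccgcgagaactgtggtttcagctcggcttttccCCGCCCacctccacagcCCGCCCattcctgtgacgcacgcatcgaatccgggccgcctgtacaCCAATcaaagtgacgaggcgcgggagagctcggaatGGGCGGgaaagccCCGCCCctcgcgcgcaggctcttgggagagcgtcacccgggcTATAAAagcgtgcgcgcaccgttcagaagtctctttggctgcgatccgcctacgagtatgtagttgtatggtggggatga
Snhg18, chr15:32244613-32244912, minus strand: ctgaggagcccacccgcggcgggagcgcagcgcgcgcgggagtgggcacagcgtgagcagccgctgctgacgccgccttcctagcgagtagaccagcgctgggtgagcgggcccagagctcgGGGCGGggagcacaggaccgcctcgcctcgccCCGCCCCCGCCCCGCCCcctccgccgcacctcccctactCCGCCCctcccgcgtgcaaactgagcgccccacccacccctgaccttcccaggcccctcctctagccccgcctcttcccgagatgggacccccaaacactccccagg
Snhg18 has several copies of GGGCGG or its reverse complement and no TATAAA, whereas Snhg3 has a TATAAA that begins 22 bases after the annotated start base and no GGGCGG.

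The noncoding table held 1384224 to 1647421 counts per library and the coding table held 17431309 to 21446420. The labelled tissue was checked with 16 markers fixed for it, all of which were measured. Prm1, Prm2 and Tnp1 of spermatids and Ldhc of spermatocytes were the highest of them, and the leukocyte gene Ptprc was the lowest at 0.508 FPKM, that is, fragments scaled to transcript length and library size. Prm2 was called higher in the knock-in (log2 fold change 0.53, adjusted p = 0.0289, edgeR quasi-likelihood test), which makes 1 of 16 markers against 0.982% of all coding genes. At an unadjusted p under 0.05 there were 7 of 16 markers, against 12.9% of all coding genes (edgeR). All of them but Prm1 were higher in the knock-in. Among spermatid markers Tnp1 had a log2 fold change of 0.53 and Prm1 one of -0.31. Among smooth muscle markers Myh11 had 0.38 and Acta2 0.17. Hspa2 of spermatocytes had 0.14 and Cyp17a1 of Leydig cells 0.23. The adjusted p of these genes ran from 0.0859 to 0.385 (edgeR). Taf7l had 472, 525 and 581 counts in the knock-in libraries and 507, 551 and 531 counts in the wild-type libraries, with a log2 fold change of -0.11 (adjusted p = 0.632, edgeR). In a bulk sample, fewer cells of a type and less RNA per cell cannot be told apart.

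All hosts together took a small part of the noncoding RNA. They had 1317, 1379 and 1393 counts in the knock-in libraries, against 1369, 1364 and 1239 counts in the wild-type libraries. As a share of all noncoding counts this was 0.0900% ± 0.00487 in the knock-in and 0.0927% ± 0.00296 in the wild type (SD, n = 3 each). The 2 sets of libraries overlapped. Of the 100 transcripts, 20 had no count in any library, 48 had too few counts for the test and 32 were tested. Of the 17 symbols, Snhg9, whose locus overlaps the ribosomal protein gene Rps2, was at 0 throughout, and Snhg4, host of Snora74a, was too low to test with 4, 4 and 2 counts in the knock-in and 6, 4 and 14 in the wild type.

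Levels were compared between hosts per length, as the FPKM of the authors' table summed over the transcripts of a symbol. Snhg3 stood far above the rest, at 31.1, 28.5 and 25.0 FPKM in the knock-in libraries and 37.7, 36.1 and 29.4 FPKM in the wild-type libraries. Its mean of 31.3 FPKM over the 6 libraries was 38.7% of the summed FPKM of all hosts and lay at the 97.7th percentile of the symbol sums tested in the noncoding table. Snhg8 came next, with 10.5, 14.1 and 11.8 FPKM in the knock-in and 11.1, 8.32 and 11.4 FPKM in the wild type, and its range did not overlap that of Snhg3.

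Below Snhg8 the order was Snhg14 at a mean of 7.78 FPKM, Gas5 at 6.23 and Snhg5, host of U50 in mammals, at 5.03. Each overlapped its neighbour in the order over the 6 libraries. A gap followed between Snhg5, which did not go under 4.56 FPKM in any library, and Snhg16, which did not exceed 3.64. From Snhg16 at 3.29 FPKM the means ran down without a gap through Snhg1 at 3.08, Snhg6 at 2.92, Snhg20 at 2.50, Snhg10 at 1.53, Snhg17 at 1.51, Snhg12 at 1.25, Snhg11 at 1.19, Snhg15 at 1.02 and Snhg18 at 0.888 to Snhg4 at 0.202. Snhg11, known as a transcript of neurons, was thus among the lower hosts per length.

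**Figure D1:**
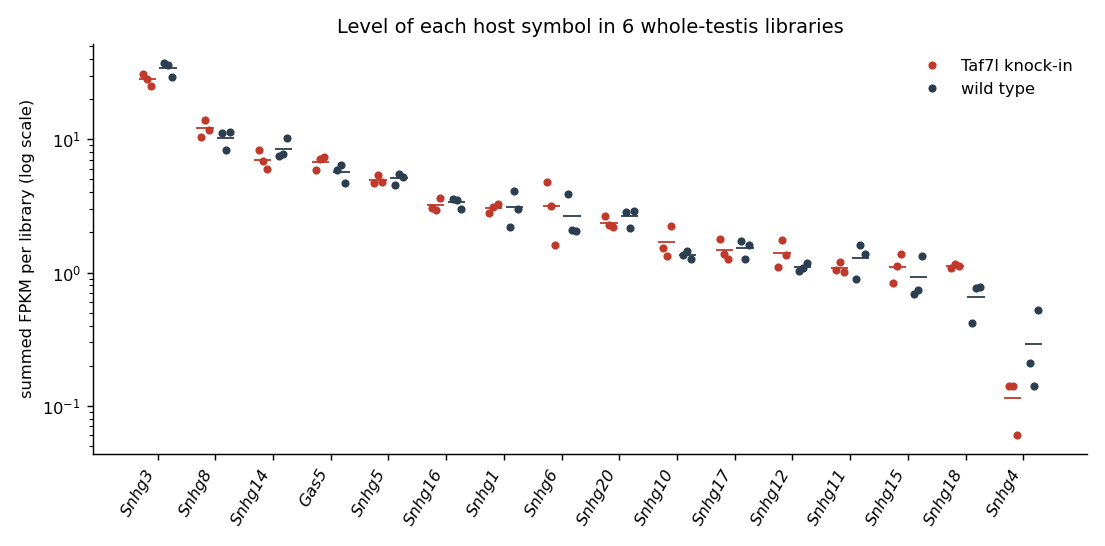
Summed FPKM of each host symbol on a log axis, with 1 point per library and a bar at the mean of the 3 libraries of a genotype, knock-in left and wild type right. Snhg3 lies between 25.0 and 37.7 FPKM in every library, Snhg18 is the tested host whose knock-in libraries all lie above the wild-type ones, and Snhg9, at 0 in all libraries, cannot be drawn.

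No host differed between the genotypes by the test. None of the 32 tested transcripts and none of the 15 tested symbol sums was called at an adjusted p under 0.05 by edgeR's quasi-likelihood test. The same test called 0.0968% of the 9301 noncoding transcripts tested and 0.111% of the 8125 symbol sums tested, so calls were rare throughout this table. At an unadjusted p under 0.05, 2 of 32 member transcripts and 1 of 15 member sums passed, against 8.97% of all transcripts and 9.55% of all sums. DESeq2 and limma also called no member transcript and no member sum. By fitted direction, 9 sums were above 0 and 6 below, with a median log2 fold change of 0.13, beside a median of 0.00 over all sums tested. For the transcripts it was 16 above and 16 below, with a median of 0.00, from -1.11 to 0.96.

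The intervals show what the data could have missed. For 12 of the 15 sums the 95% interval of the log2 fold change stayed within a 2-fold change in either direction. The other 3 were Snhg6 with an interval from -0.68 to 1.10, Snhg10 from -0.57 to 1.04, and Snhg18. Among the transcripts, 12 of 32 had an interval that narrow. After scaling of counts, knock-in and wild-type libraries were fully apart for 2 of 15 sums, Snhg18 and Snhg20. That was so for 16.0% of all sums tested. Taken by direction, 1 sum had every knock-in library higher, against 8.20% of all sums, and 1 had every knock-in library lower, against 7.80%. Among the 32 transcripts 1 had every knock-in library higher, against 8.33% of all transcripts, and 0 had every knock-in library lower, against 7.62%; the share fully apart in either direction was 16.0% of all transcripts.

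Snhg18 had the largest fitted change among the sums. This host has a single transcript in the table (ENSMUST00000181536), and it had 39, 42 and 46 counts in the knock-in libraries, against 15, 27 and 26 counts in the wild-type libraries. The lowest knock-in library was above the highest wild-type one. The level was 28.3 ± 0.964 CPM, counts scaled to the noncoding library total and by TMM, in the knock-in and 16.2 ± 5.02 CPM in the wild type (SD, n = 3 each). This is a log2 fold change of 0.80 ± 0.29 (SE), with 0.14 to 1.46 as its 95% interval and an unadjusted p of 0.0228 by edgeR. The adjusted p was 0.410 by edgeR, from 0.409 to 0.975 over the alternatives run, so the difference did not pass. Sema5a, an axon guidance gene whose locus lies 151 bp from that of Snhg18, had a log2 fold change of -0.08 ± 0.09 in the coding table (adjusted p = 0.797, edgeR).

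Snhg3, the most abundant host, was lower on average in the knock-in. Its sum had 333, 316 and 311 counts in the knock-in libraries and 408, 387 and 294 counts in the wild-type libraries. After scaling, 2 of the wild-type libraries were above all knock-in ones and the third was among them. This gave a log2 fold change of -0.26 ± 0.13, with -0.56 to 0.04 as its 95% interval (adjusted p = 0.592, edgeR). Its main transcript ENSMUST00000152943 had 286, 255 and 258 counts in the knock-in and 365, 337 and 259 in the wild type. That transcript's log2 fold change was -0.34 ± 0.14, with an interval from -0.67 to -0.02 and an adjusted p of 0.530 (edgeR).

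Snhg14, which runs antisense to Ube3a in neurons of the mouse, had 184, 161 and 144 counts in the knock-in libraries and 189, 172 and 194 counts in the wild-type libraries. Its log2 fold change was -0.27 ± 0.16 (adjusted p = 0.662, edgeR), and the libraries overlapped after scaling. RefSeq places the coding gene Snrpn inside the Snhg14 locus, and its log2 fold change was 0.17 ± 0.29 (adjusted p = 0.870, edgeR).

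Gas5, named for its accumulation in growth-arrested cells, had 81, 98 and 114 counts in the knock-in libraries, against 79, 87 and 63 in the wild type. Snhg8 had 113, 154 and 146 counts in the knock-in, against 121, 89 and 115 in the wild type. The knock-in mean was higher for both, and the libraries of both overlapped. The log2 fold changes were 0.26 ± 0.18 for Gas5 and 0.25 ± 0.18 for Snhg8, with adjusted p of 0.720 and 0.722 (edgeR). Both have an annotated start at a C followed by at least 4 further pyrimidines, though the other annotated start of Gas5 has no such run. Any link between this start feature and the fold changes was not tested.

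For Snhg1, Snhg5 and Snhg16, which carry box C/D RNAs, the means of the 2 genotypes were near each other. Snhg1, host of the U22 RNA, had 42, 46 and 56 counts in the knock-in and 32, 60 and 42 in the wild type, a log2 fold change of 0.01 ± 0.27. Snhg5 had 128, 144 and 169 counts in the knock-in and 134, 155 and 129 in the wild type, a log2 fold change of -0.02 ± 0.14. Snhg16 had 79, 79 and 104 counts in the knock-in and 91, 86 and 76 in the wild type, a log2 fold change of -0.04 ± 0.16. Snhg5 and Snhg16 have the narrowest intervals around 0 of these hosts, from -0.33 to 0.29 and from -0.42 to 0.33. Snhg6 was the most variable sum, with 54, 43 and 24 counts in the knock-in and 48, 29 and 23 in the wild type.

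Snhg12, Snhg10 and Snhg15 were low, and Snhg17 had more counts. Snhg12 had 28, 47 and 40 counts in the knock-in and 34, 32 and 29 in the wild type, with a log2 fold change of 0.19 ± 0.26. Snhg10 had 15, 15 and 27 counts in the knock-in and 15, 17 and 13 in the wild type, with 0.24 ± 0.35. Snhg15 had 23, 35 and 32 counts in the knock-in and 20, 24 and 29 in the wild type, with 0.21 ± 0.30. All 3 had overlapping libraries. Snhg17 had 80, 77 and 59 counts in the knock-in, against 63, 54 and 69 in the wild type, and a log2 fold change of 0.13 ± 0.23.

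By counts scaled to CPM, Snhg20 was the steadiest host. It was also the only tested sum with every knock-in library below every wild-type library. Before scaling it had 48, 46 and 52 counts in the knock-in and 55, 50 and 50 in the wild type, which overlap. Its summed FPKM overlapped too, at 2.65, 2.26 and 2.18 in the knock-in and 2.84, 2.17 and 2.91 in the wild type. The level was 32.5 ± 0.879 CPM in the knock-in and 36.7 ± 1.33 CPM in the wild type (SD, n = 3 each). With a log2 fold change of -0.18 ± 0.19 it did not pass the test (adjusted p = 0.815, edgeR). The spread of this sum between libraries, 3.17%, was below its expected counting error of 14.1%.

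**Figure D2:**
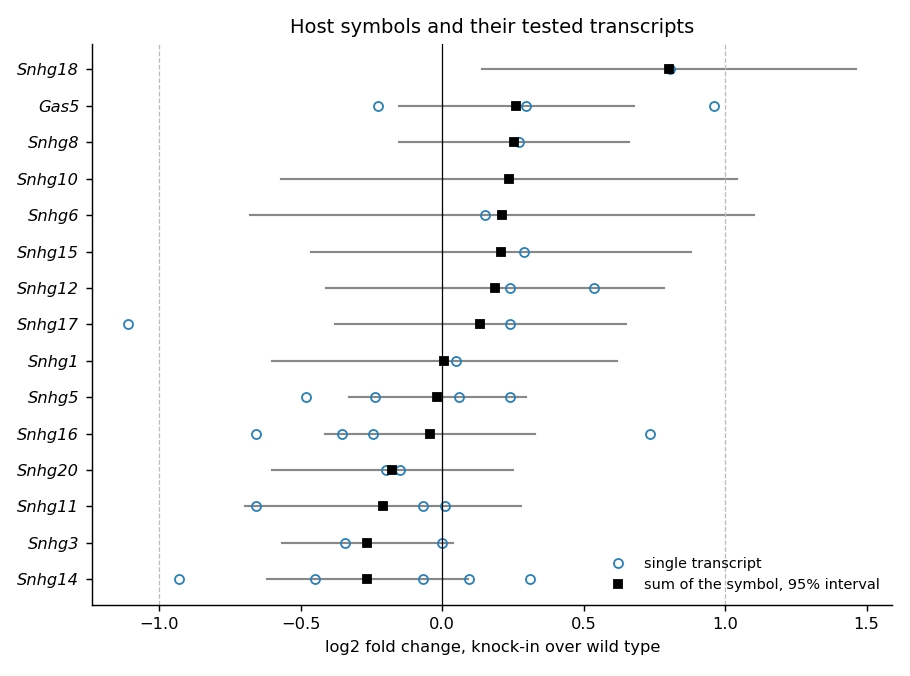
Log2 fold change, knock-in over wild type, of each tested host sum (black squares with 95% intervals) and of its tested transcripts (open circles); dashed lines mark a 2-fold change. The sum of Snhg18 at 0.80 has the one interval that lies wholly above 0, and single transcripts reach from -1.11 to 0.96 around sums between -0.27 and 0.80.

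Within a host, single transcripts scattered far more than their sum. Transcript ENSMUST00000162558 of Gas5, with the largest fitted rise at 0.96 ± 1.03, had 2, 21 and 23 counts in the knock-in and 13, 9 and 0 in the wild type. Transcript ENSMUST00000133449 of Snhg17, with the largest fitted fall at -1.11 ± 1.01, had 17, 0 and 3 counts in the knock-in and 23, 9 and 10 in the wild type. Both overlapped between the genotypes and neither passed the test. With a library left out the first ran from 0.40 to 1.63 and the second from -3.25 to -0.54. The others at the high end, beside that of Snhg18, come from Snhg16, Snhg12 and Snhg14. ENSMUST00000139934 of Snhg16 had 37, 10 and 54 counts in the knock-in and 23, 11 and 22 in the wild type, a fitted log2 fold change of 0.74. ENSMUST00000231453 of Snhg12 had 0, 22 and 15 counts in the knock-in and 11, 13 and 0 in the wild type, with 0.54. ENSMUST00000186345 of Snhg14 had 31, 26 and 22 counts in the knock-in and 9, 23 and 28 in the wild type, with 0.31. Libraries of the same genotype thus differed as much as those of different genotypes.

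The low end holds transcripts of Snhg14, Snhg11, Snhg16 and Snhg5, again with overlapping libraries. ENSMUST00000185815 of Snhg14 had 0, 8 and 17 counts in the knock-in and 19, 8 and 17 in the wild type, a fitted log2 fold change of -0.93. ENSMUST00000239310 of Snhg11 had 25, 15 and 11 counts in the knock-in and 13, 44 and 20 in the wild type, with -0.66. With a library left out these 2 ran from -1.87 to -0.36 and from -1.08 to -0.03. Both hosts also have transcripts with a fitted change near 0. ENSMUST00000239226 of Snhg16 had 3, 12 and 7 counts in the knock-in and 11, 10 and 12 in the wild type, with -0.66. ENSMUST00000239274 of Snhg5 had 11, 10 and 19 counts in the knock-in and 11, 21 and 20 in the wild type, with -0.48. The adjusted p of these transcripts at both ends was 0.765 or more by edgeR, except 0.461 for Snhg18.

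The most abundant transcript of a host was taken by counts. It was also the highest by FPKM in 12 of 16 hosts with counts, and not in Snhg10, Snhg11, Snhg14 and Snhg15. In Snhg14, for one, ENSMUST00000187666 averaged 0.808 FPKM over the 6 libraries and ENSMUST00000185272 averaged 2.78 FPKM. ENSMUST00000159706 of Gas5 had 71, 61 and 65 counts in the knock-in, against 56, 59 and 37 in the wild type, and a log2 fold change of 0.30. ENSMUST00000196466 made up nearly all of Snhg8, with 111, 154 and 146 counts in the knock-in and 119, 89 and 113 in the wild type. ENSMUST00000239369 of Snhg5 had 76, 94 and 99 counts in the knock-in and 80, 97 and 66 in the wild type. For these 3 the libraries overlapped. ENSMUST00000187666 of Snhg14 had 58, 55 and 44 counts in the knock-in and 62, 45 and 33 in the wild type, and ENSMUST00000186993 of Snhg17 had 55, 54 and 38 in the knock-in and 33, 34 and 51 in the wild type. These overlapped too.

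The transcripts with the most counts in the 6 other hosts had few. ENSMUST00000206155 of Snhg1 had 35, 46 and 49 counts in the knock-in and 32, 52 and 34 in the wild type. ENSMUST00000239262 of Snhg11 had 36, 41 and 36 counts in the knock-in and 36, 40 and 36 in the wild type. ENSMUST00000182580 of Snhg6 had 38, 26 and 17 counts in the knock-in and 38, 12 and 20 in the wild type. The transcript of Snhg11 was the most even of the 3, and that of Snhg6 the least. ENSMUST00000149822 of Snhg20 had 24, 18 and 23 counts in the knock-in and 30, 14 and 24 in the wild type. ENSMUST00000134527 of Snhg15 had 4, 25 and 3 counts in the knock-in and 3, 12 and 10 in the wild type. These 5 had fitted log2 fold changes from -0.15 to 0.29 and overlapping libraries. ENSMUST00000222812 of Snhg10, too low to test, had 4, 9 and 11 counts in the knock-in and 9, 14 and 7 in the wild type.

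The contrast in scatter was measured on the 9 hosts with at least 2 tested transcripts. The coefficient of variation between libraries of one genotype had a median of 12.9% for the sums and 43.3% for the transcripts, where counting error alone gives the sums a median of 10.8%. The sum was steadier than the median of its transcripts in 9 of 9 hosts, and steadier than every one of its transcripts in 8 of 9. The exception was Snhg11, whose steadiest transcript varied by 9.55% and whose sum varied by 15.9%. Single transcripts have fewer counts and so more counting error than their sum, which by itself makes a sum steadier. The part of counting error in this contrast was not tested, and these 2 counts of hosts were not made over all symbols. The variance of the sum divided by the summed variances of the tested transcripts, which is near 1 for transcripts that vary independently, had a median of 0.657 over the 9 hosts and 0.970 over all 952 symbols with at least 2 tested transcripts. It was below 1 in 6 of the 9 hosts and in 54.2% of all such symbols. It was lowest for Snhg20 at 0.139, Snhg16 at 0.255 and Snhg5 at 0.339.

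**Figure D3:**
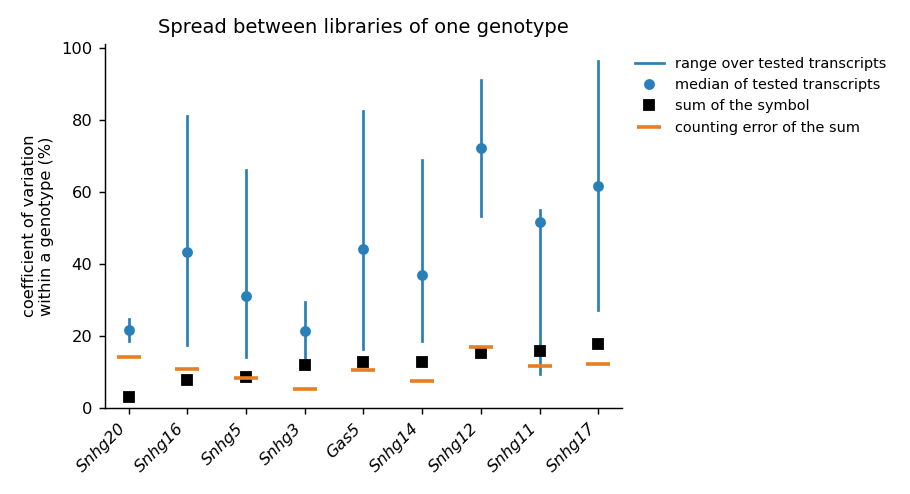
Coefficient of variation between libraries of one genotype, in %, for the sum of each host (black squares), for its tested transcripts (blue, median and range) and expected from counting error of the sum (orange), for the 9 hosts with at least 2 tested transcripts. These sums lie between 3.17% and 17.9% and the transcript medians between 21.3% and 72.2%.

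In the deposited table some transcripts have no count but a level. Of the 101675 noncoding values at 0 counts, 764 have an FPKM above 0, and so do 6 of the 246 member values at 0. How reads shared by overlapping transcripts of a host were assigned is not given in the sources used here, so values of single transcripts are uncertain.

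The share of a host's counts in its most abundant transcript, again by counts, shows the mix of isoforms. In Snhg3, ENSMUST00000152943 took 85.9%, 80.7% and 83.0% of the counts in the knock-in libraries and 89.5%, 87.1% and 88.1% in the wild-type libraries. Every knock-in library was below every wild-type library, with means of 83.2% ± 2.60 and 88.2% ± 1.19 (SD, n = 3 each) and a difference of -5.03 percentage points. The exact two-sided permutation test gave p = 0.1, the smallest that 3 libraries against 3 can give, and 0.9 after adjustment over the 9 hosts. The other 8 hosts overlapped between the genotypes. How often such shares separate among all symbols was not measured.

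The widest difference in means was that of Snhg16, where ENSMUST00000139934 took 46.8%, 12.7% and 51.9% of the counts in the knock-in and 25.3%, 12.8% and 28.9% in the wild type. In Snhg12, ENSMUST00000231453 took 0%, 46.8% and 37.5% in the knock-in and 32.4%, 40.6% and 0% in the wild type. In both hosts the mix changed more within a genotype than between the genotypes. Gas5 was 69.0% ± 16.4 one transcript in the knock-in and 65.8% ± 6.32 in the wild type, and Snhg14, with 13 of its 14 transcripts above 0, was 32.1% ± 1.87 one transcript in the knock-in and 25.3% ± 7.93 in the wild type.

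**Figure D4:**
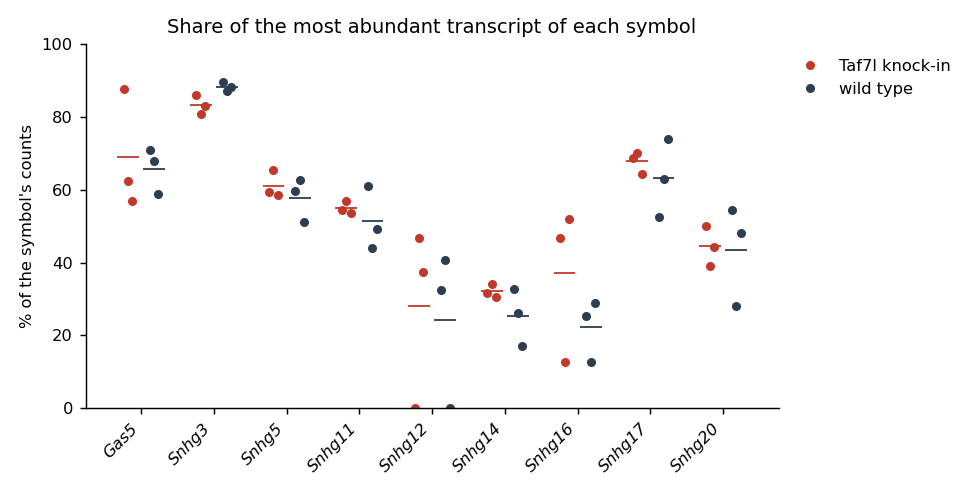
Share of a host's counts in its most abundant transcript, in %, for the 9 hosts with at least 2 tested transcripts, with 1 point per library and a bar at the mean, knock-in left and wild type right. Snhg3 is the host whose genotypes do not overlap, and Snhg12 and Snhg16 vary widely within a genotype.

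Snhg11 appears a second time, as a gene of the coding table (ENSMUSG00000044349). There it had 101, 113 and 102 counts in the knock-in and 95, 130 and 109 in the wild type, with a log2 fold change of -0.17 ± 0.17. In the noncoding table its sum had 66, 72 and 67 counts in the knock-in and 59, 91 and 73 in the wild type, with a log2 fold change of -0.21 ± 0.21. The second wild-type library was the highest in both tables. Neither passed the test (adjusted p of 0.739 and 0.808, edgeR). Snhg4 is also in the coding table, with 2, 0 and 1 counts in the knock-in and 0, 0 and 1 in the wild type.

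Circular RNAs were found at 2 host loci, both near the limit of detection. A single-exon circle of Snhg11 on mm10 chromosome 2 from 158382504 to 158383163 had 2, 0 and 1 counts in the knock-in and 0, 1 and 0 in the wild type (adjusted p = 0.979, edgeR). A circle of annotated Gas5 exons on chromosome 1 from 161036208 to 161036579 had 0, 4 and 0 counts in the knock-in and none in the wild type, and was not tested. Among all 3887 circles tested, 0% were called by edgeR, and 191, or 4.91%, had an unadjusted p under 0.05.

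In the authors' deposited table of this comparison, none of the 100 host transcripts had an adjusted p under 0.05, and the lowest was 0.708. Of all 33433 noncoding transcripts, 0.341% were below 0.05 after adjustment in the authors' deposited table. At an unadjusted p under 0.05 the authors' deposited table has 2 of the 100 host transcripts, against 2.17% of all. Both belong to Snhg12 and point in opposite directions: ENSMUST00000232260 had 2, 4 and 10 counts in the knock-in and none in the wild type, and ENSMUST00000126380 had none in the knock-in and 4, 0 and 16 in the wild type.

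The nearest measured coding gene of each host was taken from RefSeq positions, and the neighbour of Snhg16 was the one that differed. St6galnac2, a sialyltransferase gene 905 bp away, had 2538, 2726 and 3272 counts in the knock-in libraries and 1806, 1548 and 1423 counts in the wild-type libraries. The genotypes were far apart, at 145 ± 7.93 CPM in the knock-in and 87.1 ± 10.02 CPM in the wild type (SD, n = 3 each). This was a log2 fold change of 0.73 ± 0.08 (adjusted p = 0.00844, edgeR), and the adjusted p was 0.0559 without knock-in library 3. Snhg16 itself had a log2 fold change of -0.04. The share of coding genes called was 0.982%, and 1 of the 17 neighbours was called. The 17 log2 fold changes ran from -0.21 to 0.73 with a median of -0.01, and 10 of the neighbours lie within 1000 bp of the host or overlap it.

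Of the proteins that bind or assemble small nucleolar RNAs, none of 20 tested genes was called by edgeR, with 7 at an unadjusted p under 0.05 against 12.9% of all coding genes, 2 called by DESeq2 and 1 by limma. In fitted direction 16 of the 20 were above 0, with a median log2 fold change of 0.15, beside 0.00 for all coding genes tested. All knock-in libraries were above all wild-type libraries for 9 of the 20, against 10.1% of all coding genes, and below for 1, against 8.41%. Fbl, the methyltransferase of box C/D particles, picked after its values were seen, had 370, 440 and 473 counts in the knock-in and 297, 329 and 285 in the wild type, with a log2 fold change of 0.39 ± 0.10 (adjusted p = 0.101, edgeR). In the same list Snu13 had a larger log2 fold change of 0.49 ± 0.11 (adjusted p = 0.0735, edgeR). Among the genes below 0 were Nop58 at -0.15 ± 0.07 and Dkc1 at -0.16 ± 0.18. Among the most abundant by FPKM, Nop53 had a log2 fold change of 0.32 ± 0.07 (adjusted p = 0.0669, edgeR). Ruvbl2, an ATPase of the assembly machinery, had 0.25 ± 0.09. Nop10, a box H/ACA core protein, had 0.16 ± 0.09, and Pih1d1 had 0.11 ± 0.07. Short transcripts in general leaned the same way. When coding genes were split by length into 10 equal bins, the shortest bin had a median of 0.11 on the log2 fold change scale, and the bins that hold the 20 genes had a median of 0.03. The part of length in this lean was not tested.

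Coding genes that carry small nucleolar RNAs in their introns, most of them genes for ribosomal proteins or translation factors, moved in both directions. Of 35 tested genes 6 were called, or 17.1% against 0.982% of all coding genes, with 4 higher in the knock-in, against 0.880% of all coding genes, 2 lower, against 0.101%, and a median log2 fold change of 0.02. Rpl5 had 808, 658 and 683 counts in the knock-in libraries and 1151, 1112 and 1200 in the wild-type libraries. Its genotypes did not overlap, and its log2 fold change was -0.78 ± 0.12 (adjusted p = 0.0206, edgeR).

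Tcp1, a subunit of the cytosolic chaperonin, had 10272, 8517 and 12227 counts in the knock-in and 14816, 14584 and 13459 in the wild type. Its libraries did not overlap either, and its log2 fold change was -0.57 ± 0.09 (adjusted p = 0.0268, edgeR). The rises were Rpl23a at 0.39 ± 0.07, Rpl32 at 0.37 ± 0.06, Rpl21 at 0.31 ± 0.06 and Rpl27a at 0.28 ± 0.05, with adjusted p from 0.0275 to 0.0439 (edgeR). The most abundant members by FPKM, Eef2, Rps12, Tpt1 and Rpl13a, had log2 fold changes from -0.01 to 0.08 and were not called. By counts, Tcp1, which was called, ranked above Rps12, Tpt1 and Rpl13a.

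With each library's trend on transcript length removed, an alternative added after the data were seen, the 4 rises were no longer called while Rpl5 and Tcp1 were, which left 2 of 35. The count was 2 without knock-in library 1 and 0 without knock-in library 3 or without any one of wild-type libraries 1, 2 and 3. Ribosomal protein genes have many near-identical processed copies in the genome, and how reads shared with them were counted is not given in the sources used here.

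Of the nonsense-mediated decay factors 1 of 19 tested genes was called, or 5.26% against 0.982% of all coding genes, and 5 of 19 had an unadjusted p under 0.05, against 12.9%. It was Upf3a, a paralog of the decay factor Upf3b, with 1871, 1881 and 2287 counts in the knock-in and 1417, 1351 and 1327 in the wild type. The genotypes did not overlap, at 103 ± 5.18 CPM in the knock-in and 74.7 ± 3.10 CPM in the wild type (SD, n = 3 each). This was a log2 fold change of 0.46 ± 0.06 (adjusted p = 0.0143, edgeR), and the call was lost without knock-in library 3, wild-type library 2 or wild-type library 3. The list as a whole had a median of -0.02, and Upf1, the central helicase of the pathway, had a log2 fold change of 0.04 ± 0.06. Ncbp1, Smg5 and Smg9, abundant by FPKM, lay between -0.08 and -0.02. Smg1, with the most counts of the list, had a log2 fold change of -0.17 ± 0.07 (adjusted p = 0.342, edgeR).

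Of the exosome and nuclear RNA turnover genes, which trim the small RNAs once the intron is opened, none of 21 tested genes was called by edgeR and the median was 0.02. At an unadjusted p under 0.05 there were 4 of 21, against 12.9% of all coding genes, and DESeq2 called 1 and limma 0. Exosc5, the most abundant of them, had a log2 fold change of -0.15 ± 0.05 (adjusted p = 0.289, edgeR). Exosc10, the nuclear exonuclease of the exosome, had 0.10 ± 0.06, Mtrex 0.02 ± 0.06 and Xrn2 0.13 ± 0.06. Parn, a deadenylase that trims the ends of small RNAs, picked after its values were seen, had 386, 487 and 398 counts in the knock-in and 188, 280 and 288 in the wild type. Every knock-in library of Parn was above every wild-type library, and its log2 fold change, the largest of the list at 0.65 ± 0.17, did not pass (adjusted p = 0.134, edgeR). Dbr1, the debranching enzyme that opens intron lariats, picked for that role, had 93, 114 and 101 counts in the knock-in and 93, 113 and 124 in the wild type, and its libraries overlapped.

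**Figure D5:**
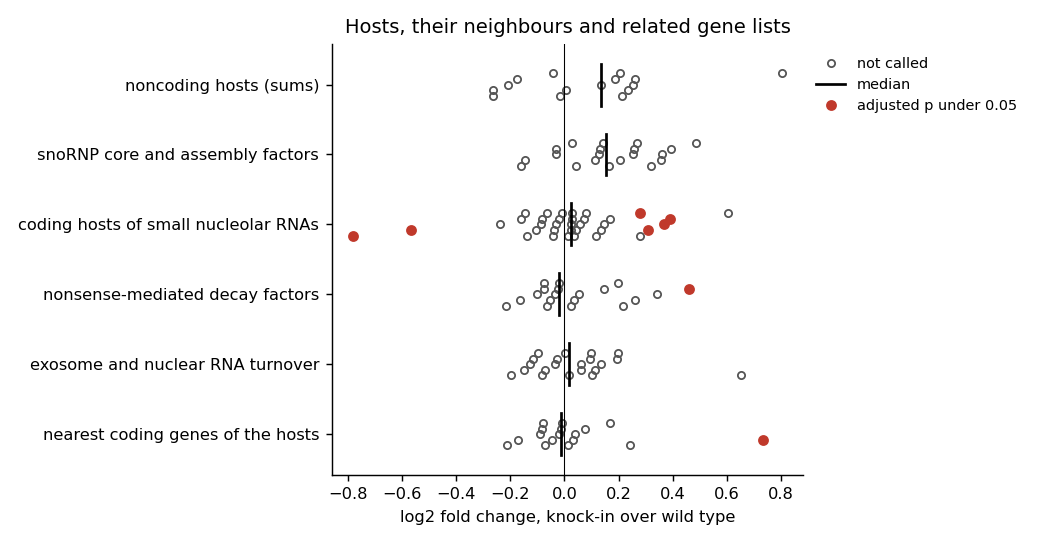
Log2 fold change, knock-in over wild type, of the noncoding hosts, of 4 related gene lists and of the nearest coding genes, with 1 point per tested gene, a bar at the median and filled points for genes called. The hosts have no call, the coding hosts have 6, the decay factors have Upf3a and the neighbours have St6galnac2.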

How the data were processed

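Whole-testis total RNA was sequenced from 3 knock-in and 3 wild-type libraries. Per the file headers, the authors deposited whole-number counts and FPKM in each library for 22298 coding genes and 33433 noncoding transcripts, and counts and RPM for 7391 circular RNAs, where RPM is relative to all circular counts of the table. The deposited tables also hold the authors' group means (FPKM for linear RNA, a signal for circles), a log2 ratio of them, and p-values with and without adjustment. Per the submitters' processing notes the genome was mm10. Aligner, counter, use of strand and test of the authors: not given in the sources used here.

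Counts were tested with edgeR's quasi-likelihood test on whole tables (edgeR 4.0.16, limma 3.58.1, R 4.3.3), with TMM scaling, filterByExpr (minimum count 10, minimum total 15), and two-sided p-values adjusted by Benjamini-Hochberg, called under 0.05. Circles needed counts in 3 libraries. Symbol sums were fitted on the table summed by symbol (21353 rows, 8125 tested). DESeq2 1.42.0 and limma on log2(FPKM + 0.1) were alternatives. Fits were tested on simulated data. Transcript length was taken from counts and FPKM.

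Members and gene lists were chosen with earlier results of these data known. All symbols are named, with each sum's values and its most abundant transcript. The 5 transcripts with the largest and the 5 with the smallest fold change are named too. In lists, every called gene and up to 4 of the most abundant by FPKM are named. Btz and Papd5 were not found under those symbols. Promoters, positions and small RNA genes come from RefSeq (GRCm38.p6); the tables matched all 17 symbols by position and 15 by promoter.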

Additional observations from a re-analysis of the deposited data

How the results depend on the processing

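No member transcript and no member sum was called under any alternative run: DESeq2, other scalings, no filter on low counts, a stricter filter, limma on FPKM, the replicate block and each library left out, and with the length trend removed, which was run for transcripts only. The 9 noncoding transcripts called became 119 with DESeq2, 129 with no filter, 15 with at least 50 counts in 3 libraries, 23 with limma and 2 with the replicate block, and 6 to 15 with a library left out, highest without knock-in library 3. The 9 noncoding sums called became 101, 79, 18 and 16 under the first 4 of these, and 5 to 13 with a library left out, lowest without knock-in library 2. The 155 coding genes called became 451 with DESeq2, 251 with limma, 84 with the length trend removed (added after the data were seen) and 11 to 125 with a library left out, lowest without knock-in library 3. Calls among the proteins of small nucleolar RNA particles were 0, but 2 with DESeq2, 1 with limma, and 0 to 1 with a library left out (1 without knock-in library 2). The exosome list had 1 with DESeq2. Coding hosts had 2 with the length trend removed and 0 to 5 with a library left out, decay factors 0 to 1, and circles 0 to 1 (1 without knock-in library 2). The cause of these shifts was not tested.

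The labels do not say whether the shared replicate numbers pair the libraries, so the block is only an alternative. Deviations of same-numbered noncoding libraries correlated by -0.0008, 0.0130 and -0.0217, and those of coding libraries by 0.137, 0.0780 and 0.0322. Of the coding libraries, 5 of 6 correlated best with their own number, a hint from the data. For the noncoding libraries it was 2 of 6. The block gave 178 coding genes called. None of the members is called, and the fitted direction turned in 27 of 504 values under the alternatives. The sum of Snhg17 was -0.058 with limma, and transcript ENSMUST00000134527 of Snhg15 was -0.012 with limma and -0.041 with the block. With a library left out, the log2 fold change of sums ran from -0.20 to 0.27 for Snhg1, -0.069 to 0.061 for Snhg5, -0.094 to 0.54 for Snhg6, -0.032 to 0.35 for Snhg10 and -0.022 to 0.34 for Snhg12. For transcripts it ran from -0.094 to 0.30 for ENSMUST00000206155 of Snhg1, -0.046 to 0.21 for ENSMUST00000239369 of Snhg5, -0.21 to 0.66 for ENSMUST00000182580 of Snhg6, -0.16 to 0.019 for ENSMUST00000239262 of Snhg11, -0.25 to 1.12 for ENSMUST00000231453 of Snhg12, -0.080 to 0.33 for ENSMUST00000187666 and -0.050 to 0.66 for ENSMUST00000186345 of Snhg14, -1.33 to 0.76 for ENSMUST00000134527 of Snhg15 and -0.40 to 0.079 for ENSMUST00000149822 of Snhg20. Snhg4, with few counts, and Snhg9, with none, could not be compared.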
